A study of Mus musculus with 12 samples.

Results

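The Wnt genes, their Frizzled receptors and the secreted antagonists of the Sfrp and Dkk families were examined in neurons made from mouse embryonic stem cells in which an arginine methyltransferase had been knocked down. Members were all genes whose only platform symbol starts with Wnt, Fzd, Sfrp or Dkk followed by a digit, with the brightest probe set taken for each. This gave 38 of the 19938 genes with a single symbol on the array: 19 Wnt genes, 11 with an Fzd symbol, 4 Sfrp genes and 4 Dkk genes. One of the 11 is Fzd10os, an antisense transcript named after Fzd10 and not a receptor. The dimmest 25% of genes were not tested, which removed only Wnt2b (5.07 to 5.49 on the log2 scale over the 12 arrays) and left 37 members.

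Neurons of 4 kinds were compared, all made from D3, a line of mouse embryonic stem cells: a line with knockdown of PRMT1 (siPRMT1), a line with knockdown of PRMT8 (siPRMT8), a control line that carries a scrambled, non-targeting sequence (siSCR), and unmodified D3 cells (D3). PRMT1 and PRMT8 are enzymes that methylate arginine residues of proteins. All were differentiated through embryoid bodies without the self-renewal factor LIF, and the labels name no other treatment. They were harvested as neurons at day 16, with 3 biological replicates in each of the 4 groups. Each knockdown is 1 line, so a line's own history and its knockdown cannot be told apart. No label says whether replicates came from separate differentiations. The p-values therefore reflect only how far these samples spread, part of which may be technical. RNA was labelled and hybridised to 1-colour whole-transcript arrays. The deposited values are on a log2 scale, and since probe sets differ in brightness, no gene's level is set against another gene's. The RNA came from whole cultures, in which fewer cells of a type and less RNA per cell cannot be told apart.

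Wnt proteins are secreted, lipid-modified signals that bind Frizzled receptors together with LRP5 or LRP6. In the canonical branch this stabilises beta-catenin, which then activates genes with TCF and LEF factors, while other branches act on planar cell polarity and calcium. Sfrp proteins bind Wnt in the extracellular space, and Dkk proteins act mainly on the LRP co-receptors. In the developing nervous system Wnt1, Wnt3 and Wnt3a are known from the dorsal midline and Wnt1 from the midbrain-hindbrain boundary, where they support progenitor growth and dorsal fates. Wnt7a and Wnt7b are also known for roles in axons and synapses.

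The upstream sequences of 4 members are shown because 3 of them (Wnt1, Wnt3 and Fzd10) were higher together in siPRMT8 neurons than in both controls, whereas the fourth, Wnt7a, was lower there. Fzd2 was also called higher, and Sfrp1 and Dkk3 lower, in siPRMT8 neurons against both controls, and their windows are not shown. Each run is the 250 bases before the annotated start, written along the gene's strand, from RefSeq on GRCm38.p6: chr15:98789607-98789856 (+) for Wnt1, chr11:103773925-103774174 (+) for Wnt3, chr5:128600856-128601105 (+) for Fzd10 and chr6:91411354-91411603 (-) for Wnt7a. Capitals mark the GC box letters GGGCGG on either strand.
Wnt1: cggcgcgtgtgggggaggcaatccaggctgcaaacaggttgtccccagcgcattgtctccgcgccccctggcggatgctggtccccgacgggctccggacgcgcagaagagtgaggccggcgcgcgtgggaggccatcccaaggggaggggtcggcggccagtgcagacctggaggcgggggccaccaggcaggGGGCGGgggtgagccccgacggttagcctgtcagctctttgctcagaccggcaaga
Wnt3: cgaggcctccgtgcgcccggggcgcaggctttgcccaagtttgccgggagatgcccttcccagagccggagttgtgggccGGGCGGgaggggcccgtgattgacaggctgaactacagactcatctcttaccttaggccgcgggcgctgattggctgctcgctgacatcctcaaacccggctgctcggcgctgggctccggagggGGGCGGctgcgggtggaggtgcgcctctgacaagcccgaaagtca
Fzd10: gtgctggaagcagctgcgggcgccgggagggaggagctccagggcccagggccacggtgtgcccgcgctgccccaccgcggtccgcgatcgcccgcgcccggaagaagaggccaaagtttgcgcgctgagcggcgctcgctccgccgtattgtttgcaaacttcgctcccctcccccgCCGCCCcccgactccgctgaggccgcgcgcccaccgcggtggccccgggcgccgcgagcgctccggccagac
Wnt7a: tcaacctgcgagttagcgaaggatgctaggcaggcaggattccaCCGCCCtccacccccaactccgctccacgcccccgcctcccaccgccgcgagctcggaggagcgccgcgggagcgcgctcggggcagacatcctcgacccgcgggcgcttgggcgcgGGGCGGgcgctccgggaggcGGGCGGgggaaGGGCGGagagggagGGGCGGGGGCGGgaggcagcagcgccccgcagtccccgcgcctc
The core of the TCF and LEF motif was searched as CTTTGA and CTTTGT on both strands, and no match to either lay in the 4 windows. One of these 2 forms occurred in 27.6% of all 32851 windows of that length, and in 7 of the 28 windows (25%) of the 25 members searched. Members on chromosomes 8 and 18 (Sfrp1, Dkk4, Fzd8 and Wnt8a) and members without a window were not among the 25. The share over all windows had no such cut by chromosome, so these 2 shares are not counted alike. GGGCGG occurred in 32.7% of all windows, once in the windows of Wnt1 and Fzd10, 2 times in that of Wnt3 and 6 times in that of Wnt7a, where the last 2 adjoin. The windows held 71.6% (Wnt1), 68% (Wnt3), 76.4% (Fzd10) and 77.6% (Wnt7a) G and C, with 23, 22, 37 and 34 CpG in the same order. Among the 4 windows shown, those of the 3 higher genes and that of Wnt7a thus all held at least 68% G and C. The GC box letters were most frequent in that of Wnt7a. The G and C share over all windows was not computed.

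The labels were checked on the targeted genes. Prmt1 read 7.59 to 7.95 in siPRMT1 neurons, against 8.74 to 8.86 in siSCR neurons (log2 difference -1.06, SE 0.0885, adjusted p = 0.000115). Prmt8 read 6.17 to 6.44 in siPRMT8 neurons, against 6.60 to 7.18 in siSCR neurons (-0.61, SE 0.157, adjusted p = 0.0171), and this call was lost when siPRMT8 replicate 2, siSCR replicate 2 or siSCR replicate 3 was left out. Prmt8 was also lower in siPRMT1 neurons than in D3 neurons (-0.75, adjusted p = 0.00488), and Prmt1 was higher in siPRMT8 neurons than in siSCR neurons (0.43, adjusted p = 0.00625). Prmt8 was not called in siPRMT1 against siSCR neurons (-0.32, adjusted p = 0.177). For Prmt8, all siSCR arrays read below all D3 arrays, also without a call (-0.43, adjusted p = 0.388). Prmt8 did not separate siPRMT1 from siPRMT8 neurons (0.29, adjusted p = 0.489), whereas Prmt1 did (-1.49, adjusted p = 2.36e-05). One control array stood apart: on the first principal component (61.4% of the variance) siSCR replicate 1 lay at -0.105, between the knockdown arrays (-25.7 to -13.6) and the other control arrays (21.6 to 26.2), and it correlated best with siPRMT1 replicate 1. In the siPRMT1 group, replicate 2 correlated best with siPRMT8 replicate 1. Of 24 pan-neuronal markers, 19 were lower and 0 higher in siPRMT1 than in siSCR neurons and 17 were lower and 1 higher in siPRMT8 than in siSCR neurons, with 22 lower in both comparisons without siSCR replicate 1. Of all genes, 18.7% and 23.8% were called in these 2 comparisons, and 25.2% and 27.5% without siSCR replicate 1. The pan-neuronal list's mean over arrays was 8.13 to 8.22 in siPRMT1, 8.17 to 8.39 in siPRMT8, 8.48, 9.34 and 9.29 in siSCR and 9.27 to 9.36 in D3 neurons. How far this broad difference bears on the Wnt genes was not tested.

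In siPRMT1 neurons 4 of the 37 members were called against siSCR (adjusted p under 0.05 in limma, over all 14953 genes tested), 3 higher and 1 lower, which is 10.8% of the members where 18.7% of all genes were called. Against D3, 9 were called, 5 higher and 4 lower (24.3%, where 26.4% of all genes were). In siPRMT8 neurons 8 were called against siSCR, 5 higher and 3 lower (21.6%, where 23.8% of all genes were), and 8 against D3, 4 in each direction (21.6%, where 27.7% were). With these settings the members were called no more often than genes at large in any of the 4 comparisons, and what follows concerns single genes. Some other settings turned that order, by most without siPRMT1 replicate 1, where 35.1% of the members and 24.3% of all genes were called in siPRMT1 against D3 and 18.9% and 16.9% against siSCR. Leaving out siPRMT1 replicate 2 raised the siPRMT8 calls against siSCR to 13, 9 higher and 4 lower (35.1%, where 31.9% of all genes were called). Upward calls covered 7.18%, 10.7%, 11.7% and 12.5% of all genes for siPRMT1 and siPRMT8 against siSCR and for siPRMT1 and siPRMT8 against D3, and downward calls 11.6%, 13.2%, 14.7% and 15.2%. The members' split into higher and lower calls depended on the scaling. Over the 19938 genes, array medians were lower in knockdown (6.83 to 6.86) than in control arrays (6.89 to 6.94), a difference that median centring removes. With each array centred on its median, higher and lower calls numbered 6 and 1, 9 and 1, 11 and 3, and 6 and 1 in the same 4 comparisons, where 27%, 28.5%, 35.6% and 32.8% of all genes were called. With quantile normalisation they numbered 4 and 1, 6 and 2, 7 and 4, and 5 and 1, where 22.1%, 25.9%, 31% and 30.2% of all genes were called. The median log2 difference over the members was 0.11, 0.06, 0.13 and 0.11, against 0.04, 0.01, 0.05 and 0.03 over all genes. Counted by whether all 3 arrays of one group lay beyond all 3 of the other, 7, 14, 16 and 18 of the 37 members did not overlap (18.9%, 37.8%, 43.2% and 48.6%), against 30%, 41.8%, 44.2% and 52.6% of all genes. Comparisons with the same control share its arrays, so their values are given side by side and not as repeats of one another.

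**Figure D1:**
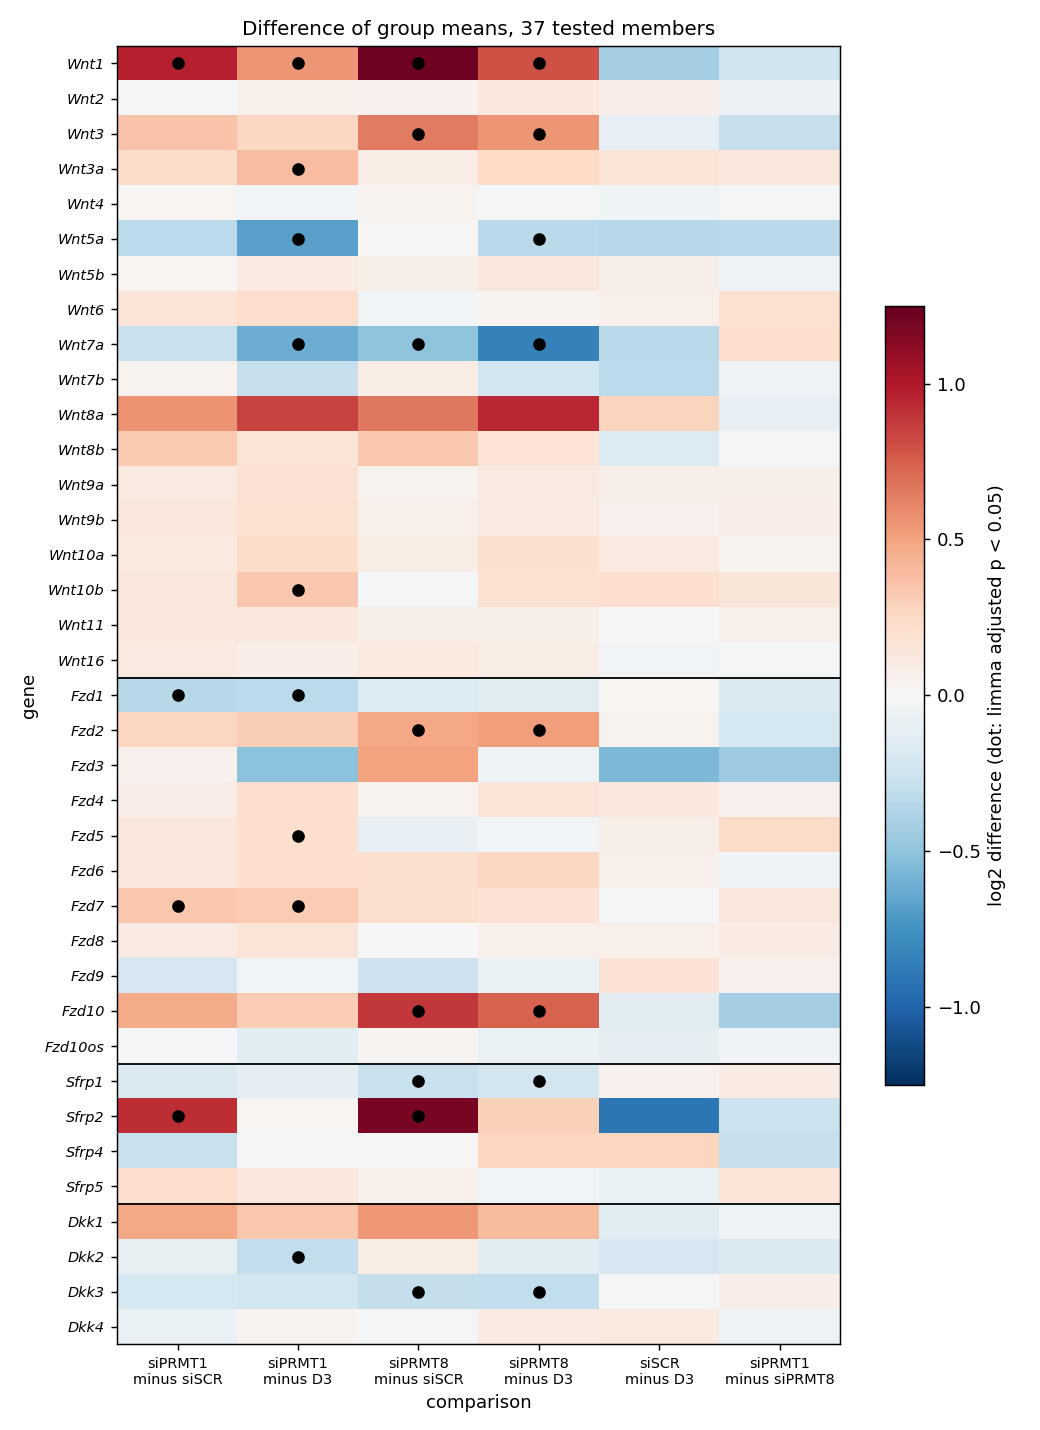
Log2 difference of group means for the 37 tested members (rows, by family) in the 6 comparisons (columns). Red is higher and blue lower in the first-named group, and a dot marks limma adjusted p under 0.05. The 29 dots fall on 15 genes, with Wnt1 called in all 4 knockdown comparisons and no dot in the last 2 columns.

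Among the ligands Wnt1 moved most. With the replicates in the order 1, 2, 3, it read 5.90, 6.74 and 6.0 in siPRMT1 neurons, 6.60, 6.26 and 6.53 in siPRMT8 neurons, against 5.29, 5.24 and 5.20 in siSCR and 5.55, 5.74 and 5.70 in D3 neurons. Every knockdown array lay above every control array. The siSCR readings were under 5.43, the mean below which a gene was not tested, so the differences from siSCR start near the floor. Wnt1 passed that filter on its mean over all 12 arrays (5.90), which includes the higher knockdown arrays. Wnt1 was 1.96-fold higher in siPRMT1 than in siSCR neurons (log2 difference 0.97, SE 0.178, adjusted p = 0.00443) and 2.33-fold higher in siPRMT8 than in siSCR neurons (1.22, adjusted p = 0.00135). Its increase over D3 was 0.55 in siPRMT1 neurons (adjusted p = 0.0394) and 0.80 in siPRMT8 neurons (adjusted p = 0.00638). The siPRMT8 calls held under every alternative run. The siPRMT1 difference from D3 was 0.29 (adjusted p = 0.0447) without siPRMT1 replicate 2, the highest array, and its call was lost without any one D3 array (adjusted p 0.0728 to 0.122), where just these 2 groups were fitted (0.101) and with the replicate number as a block (0.0539). The siPRMT1 difference from siSCR was lost only where just these 2 groups were fitted (adjusted p = 0.056), a fit in which no member was called for that pair.

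Wnt3, a second canonical ligand, read 5.79, 6.65 and 6.27 in siPRMT1 neurons, 6.72, 6.31 and 6.55 in siPRMT8 neurons, against 5.93, 5.74 and 5.94 in siSCR and 5.99, 6.06 and 5.87 in D3 neurons. All siPRMT8 arrays exceeded all control arrays, while siPRMT1 replicate 1 lay within the controls. Wnt3 was 1.57-fold higher in siPRMT8 than in siSCR neurons (0.65, SE 0.175, adjusted p = 0.0196) and 1.47-fold higher than in D3 neurons (0.55, adjusted p = 0.0354). These calls were lost without siPRMT8 replicate 1 or 3, without siSCR replicate 2 or 3 for the first (adjusted p up to 0.0763) and without any D3 array or with the replicate block for the second (up to 0.127). In siPRMT1 neurons the differences were 0.36 from siSCR (95% interval -0.02 to 0.75, adjusted p = 0.168) and 0.26 from D3 (-0.12 to 0.64, adjusted p = 0.281), which did not pass.

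**Figure D2:**
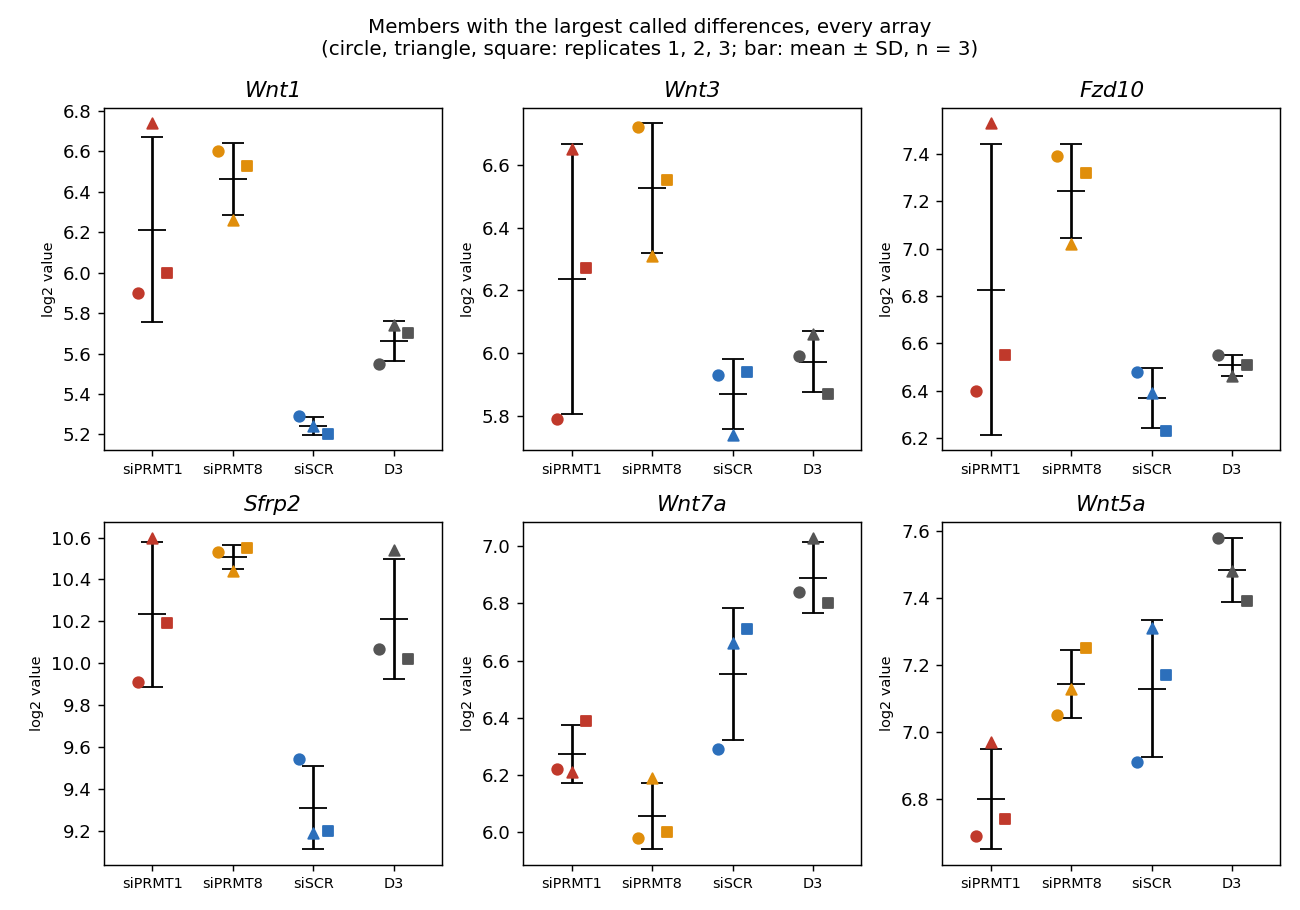
Log2 value of Wnt1, Wnt3, Fzd10, Sfrp2, Wnt7a and Wnt5a in every array, by group, each panel on its own scale that does not start at 0. Circles, triangles and squares are replicates 1, 2 and 3, and bars show mean ± SD (n = 3). The triangle of siPRMT1 is the highest of its group in all panels but that of Wnt7a, and in the Sfrp2 panel the siSCR arrays (9.19 to 9.54) lie below the D3 arrays (10.02 to 10.54).

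Wnt7a went the other way. It read 6.22, 6.21 and 6.39 in siPRMT1 neurons, 5.98, 6.19 and 6.0 in siPRMT8 neurons, against 6.29, 6.66 and 6.71 in siSCR and 6.84, 7.03 and 6.80 in D3 neurons. The siPRMT8 arrays lay below every control array, and siPRMT1 overlapped siSCR only through siSCR replicate 1. Wnt7a fell by 0.50 in siPRMT8 against siSCR neurons (SE 0.113, 1.41-fold lower, adjusted p = 0.00945), by 0.84 against D3 neurons (adjusted p = 0.000667) and by 0.62 in siPRMT1 against D3 neurons (adjusted p = 0.00231). These 3 calls held under every alternative run. For siPRMT1 against siSCR the difference was -0.28 (interval -0.53 to -0.04, adjusted p = 0.104), and once siSCR replicate 1 and siPRMT1 replicate 2 were dropped it was -0.38 (adjusted p = 0.0104).

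Wnt5a, the main ligand of the non-canonical branch, read 6.69, 6.97 and 6.74 in siPRMT1 neurons, 7.05, 7.13 and 7.25 in siPRMT8 neurons, against 6.91, 7.31 and 7.17 in siSCR and 7.58, 7.48 and 7.39 in D3 neurons. The D3 arrays were above all others, and siPRMT1 overlapped siSCR through siSCR replicate 1. Wnt5a fell by 0.68 in siPRMT1 against D3 neurons (SE 0.108, 1.61-fold lower, adjusted p = 0.00113), under every alternative run. In siPRMT8 it fell by 0.34 against D3 (adjusted p = 0.0344), a call lost under quantile normalisation, under median centring and without siPRMT8 replicate 1 or 2 or D3 replicate 1 or 2 (adjusted p up to 0.126). Against siSCR it did not pass in either knockdown (siPRMT1 -0.33, adjusted p = 0.0537, and siPRMT8 0.01, adjusted p = 0.961). Without siPRMT1 replicate 2 the siPRMT1 difference from siSCR was -0.42 and passed (adjusted p = 0.0209).

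Of the other 14 Wnt genes tested, 2 were called, both in siPRMT1 against D3 neurons only. Wnt3a, a canonical ligand, averaged 6.46 ± 0.207 in siPRMT1 and 6.07 ± 0.067 in D3 neurons (SD, n = 3; 0.39, adjusted p = 0.0367). Wnt10b, a canonical ligand known from fat and bone, averaged 6.49 ± 0.19 in siPRMT1 and 6.14 ± 0.0249 in D3 neurons (0.34, adjusted p = 0.0277). Both calls were lost without siPRMT1 replicate 2, which was the highest array for both, and without any one D3 array, and that of Wnt3a also without siPRMT1 replicate 3 and with the replicate block (adjusted p up to 0.111 for Wnt3a and 0.081 for Wnt10b). Calls of Wnt1 and Wnt3 were not shared by their neighbours in siPRMT8 neurons: 4 pairs of Wnt genes lie next to each other in the RefSeq annotation (Wnt1 with Wnt10b, Wnt3 with Wnt9b, Wnt3a with Wnt9a, Wnt6 with Wnt10a), and while Wnt1 was 1.22 and Wnt3 0.65 higher in siPRMT8 than in siSCR neurons, Wnt10b was at -0.02 (adjusted p = 0.92) and Wnt9b at 0.06 (adjusted p = 0.672). In siPRMT1 against D3 neurons, however, the neighbours Wnt1 (0.55, adjusted p = 0.0394) and Wnt10b were both called higher. Wnt9a, beside the called Wnt3a, did not pass there (0.18, adjusted p = 0.224).

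Wnt8a was chosen after its values were seen, because its arrays disagree. It read 5.91, 7.34 and 5.94 in siPRMT1 neurons, 6.81, 5.93 and 6.75 in siPRMT8 neurons, against 5.92, 5.79 and 5.81 in siSCR and 5.59, 5.60 and 5.49 in D3 neurons. High values occurred in 3 knockdown arrays (siPRMT1 replicate 2 and siPRMT8 replicates 1 and 3), and the other 3 knockdown arrays read 5.91 to 5.94. Its difference between siPRMT8 and D3 neurons was 0.94 (interval 0.22 to 1.65, adjusted p = 0.0532), and without siPRMT1 replicate 2, whose group then spreads less, it passed against both controls (0.94 from D3, adjusted p = 0.00265, and 0.66 from siSCR, adjusted p = 0.0182).

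Of the receptors, Fzd10 rose most, in siPRMT8 neurons. It read 6.40, 7.53 and 6.55 in siPRMT1 neurons, 7.39, 7.02 and 7.32 in siPRMT8 neurons, against 6.48, 6.39 and 6.23 in siSCR and 6.55, 6.46 and 6.51 in D3 neurons. In siPRMT1 neurons replicates 1 and 3 read as the controls did, and only replicate 2 was with the siPRMT8 arrays. Fzd10 was 1.83-fold higher in siPRMT8 than in siSCR neurons (0.88, SE 0.228, adjusted p = 0.018) and 1.67-fold higher than in D3 neurons (0.74, adjusted p = 0.0326). These calls were lost without siPRMT8 replicate 1 or 3, without siSCR replicate 2 or 3 for the first and without any D3 array for the second (adjusted p up to 0.0695 and 0.105), and with siPRMT1 replicate 2 and siSCR replicate 1 left out they were 0.93 and 0.74 (adjusted p = 3.12e-05 and 6.81e-05). In siPRMT1 neurons the difference from siSCR was 0.46 (adjusted p = 0.182), and 0.11 (adjusted p = 0.526) without replicate 2. Fzd10os differed by 0.03 between siPRMT8 and siSCR neurons (interval -0.20 to 0.26, adjusted p = 0.865).

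Fzd2, a receptor of both branches, was also higher in siPRMT8 neurons: 8.47 to 8.78, against 8.11 to 8.18 in siSCR and 8.04 to 8.21 in D3 neurons (0.48, SE 0.137, adjusted p = 0.0263, and 0.52, adjusted p = 0.0148). The groups did not overlap, and the calls were lost without siPRMT8 replicate 3, without siPRMT8 replicate 1 or siSCR replicate 2 or 3 for the first and without D3 replicate 1 or 3 for the second (adjusted p up to 0.108 and 0.0659). Fzd7, a receptor known from stem cells, was higher in siPRMT1 neurons: 9.26 to 9.51, against 8.94 to 9.21 in siSCR and 9.0 to 9.15 in D3 neurons (0.34, SE 0.089, adjusted p = 0.0217, and 0.32, adjusted p = 0.021). Its calls were lost when siPRMT1 replicate 1 or 3 was left out, for the first also when siSCR replicate 2 or 3 was, and for the second when D3 replicate 3 was (adjusted p up to 0.0962 and 0.0839), and the first also where just the 2 groups were fitted (0.113). Fzd1 was lower in siPRMT1 neurons: 7.47 to 7.76, against 7.92 to 8.03 in siSCR and 7.86 to 8.07 in D3 neurons (-0.35, SE 0.0805, adjusted p = 0.0122, and -0.33, adjusted p = 0.0115). It lost its calls only without siSCR replicate 3 (adjusted p = 0.0554), without D3 replicate 1 (0.0555) and in the first comparison where just the 2 groups were fitted.

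Fzd5 was the smallest called change. It read 7.13 to 7.25 in siPRMT1 and 6.91 to 7.04 in D3 neurons (0.21, SE 0.0698, adjusted p = 0.0437), and the call held without 1 of the 6 arrays compared (siPRMT1 replicate 2) and was lost without each of the other 5. It was also lost with no filter on dim genes (adjusted p = 0.0625), where just the 2 groups were fitted (0.0641), with a trended robust variance (0.0547) and with the replicate block (0.063). Fzd3, which acts in axon guidance through planar polarity, was not called and is given after its values were seen: it read 8.13, 9.04 and 8.71 in siPRMT1 neurons, 9.07, 9.02 and 9.15 in siPRMT8 neurons, against 8.22, 8.83 and 8.67 in siSCR and 9.12, 9.22 and 9.07 in D3 neurons. Replicate 1 was the lowest array in both siPRMT1 and siSCR. The remaining receptors Fzd4, Fzd6, Fzd8 and Fzd9 did not pass in any comparison.

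Sfrp2 had the largest change among the antagonists, and it separated siSCR from the rest. It read 9.91, 10.60 and 10.19 in siPRMT1 neurons, 10.53, 10.44 and 10.55 in siPRMT8 neurons, against 9.54, 9.19 and 9.20 in siSCR and 10.07, 10.54 and 10.02 in D3 neurons. The siSCR arrays were the 3 lowest of the 12, and the D3 arrays lay among the knockdown arrays. Sfrp2 was 1.89-fold higher in siPRMT1 than in siSCR neurons (0.92, SE 0.174, adjusted p = 0.00509) and 2.29-fold higher in siPRMT8 than in siSCR neurons (1.19, adjusted p = 0.00135). Against D3 neurons the differences were 0.02 in siPRMT1 (interval -0.36 to 0.40, adjusted p = 0.936) and 0.30 in siPRMT8 (-0.09 to 0.68, adjusted p = 0.235). Between the controls, siSCR minus D3 was -0.90 (interval -1.28 to -0.52, adjusted p = 0.0958), and -1.01 with siSCR replicate 1 and siPRMT1 replicate 2 left out (adjusted p = 0.00614). The increase over siSCR was therefore about as large as the distance between the 2 controls, and with their mean as the control it was 0.47 in siPRMT1 and 0.74 in siPRMT8 neurons (adjusted p = 0.0362 and 0.0033). The siPRMT1 call against siSCR was lost where just these 2 groups were fitted (adjusted p = 0.0512).

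Sfrp1, a Wnt-binding antagonist made by neural progenitors, was lower in siPRMT8 neurons: 8.46 to 8.64, against 8.71 to 8.86 in siSCR and 8.73 to 8.78 in D3 neurons (-0.28, SE 0.0751, adjusted p = 0.0203, and -0.23, adjusted p = 0.043). Dkk3, a divergent family member that is not a typical LRP antagonist, was lower there too: 6.29 to 6.62, against 6.65 to 6.77 in siSCR and 6.58 to 6.82 in D3 neurons (-0.30, SE 0.0982, adjusted p = 0.0453, and -0.31, adjusted p = 0.0358), and it overlapped D3 through siPRMT8 replicate 2. Both lost their calls under median centring and without siPRMT8 replicate 1. Sfrp1 also lost the D3 call under quantile normalisation and with no filter on dim genes (0.0615) and lost calls without siPRMT8 replicate 2, siSCR replicate 2 or 3 or any D3 array (adjusted p up to 0.144), and Dkk3 under quantile normalisation, with the replicate block and without siPRMT8 replicate 3, any siSCR array or D3 replicate 1 or 3 (up to 0.157). The Dkk3 call against siSCR was lost as well with no filter on dim genes (0.0608) and where just the 2 groups were fitted (0.0635). Dkk2, a modulator that can inhibit or activate, was lower in siPRMT1 than in D3 neurons, with 5.79 to 6.01 against 6.11 to 6.31 (-0.31, SE 0.09, adjusted p = 0.0271), and this was lost under median centring and without siPRMT1 replicate 3 or D3 replicate 2 or 3 (up to 0.102).

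Dkk1, the best known LRP antagonist and itself a target of beta-catenin, was not called and is given after its values were seen. It read 6.62, 7.52 and 6.99 in siPRMT1 neurons, 7.19, 6.82 and 7.29 in siPRMT8 neurons, against 6.43, 6.64 and 6.63 in siSCR and 6.67, 6.75 and 6.69 in D3 neurons. The siPRMT8 arrays were above both controls, and the differences were 0.54 from siSCR (interval 0.13 to 0.94, adjusted p = 0.0546) and 0.40 from D3 (0.00 to 0.80, adjusted p = 0.132). Sfrp4, Sfrp5 and Dkk4 did not pass in any comparison.

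No member was called between the controls or between the knockdowns. For siSCR against D3 limma called 0 of 37, where it called 0.154% of all genes (0.0602% higher and 0.0936% lower). Below an unadjusted p of 0.05 were 7 of the 37 members and 1430 of all 14953 genes. Without siPRMT1 replicate 2, whose spread enters the shared error, Sfrp2 was called there (-0.90, adjusted p = 0.0249). For siPRMT1 against siPRMT8 limma called 0 of 37, where again 0.154% of all genes were called (0.0869% higher and 0.0669% lower). Here 5 of the 37 members and 1824 of all 14953 genes were below an unadjusted p of 0.05. The groups did not overlap for 11 members between siSCR and D3 (29.7%, against 20.3% of all genes) and for 4 between siPRMT1 and siPRMT8 (10.8%, against 15.8%). The intervals of the second comparison still hold sizeable differences: -0.92 to 0.08 for Fzd10, -0.64 to 0.14 for Wnt1 and -0.58 to -0.10 for Wnt5a. One array decides this. Without siPRMT1 replicate 2, Fzd10 (-0.77, adjusted p = 0.0073), Wnt1 (-0.51, adjusted p = 0.0181) and Wnt5a (-0.42, adjusted p = 0.045) were lower in siPRMT1 than in siPRMT8 neurons. These 3 calls were 8.11% of the members, and the share over all genes rose as well, from 0.154% to 5.76%. With siSCR replicate 1 also left out there were 7 calls, 18.9% of the members where 12.7% of all genes were called: the same 3, Fzd3 (-0.66), Wnt3 (-0.50) and Sfrp2 (-0.45) lower and Fzd5 (0.27) higher in siPRMT1 neurons.

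The members varied together from array to array within siPRMT1. Replicate 2 was the highest array of its group for 28 of the 37 members (75.7%, against 42.7% of all genes tested), and replicate 1 the lowest for 27 (73%, against 36.6%). The median deviation of the members from their group mean was -0.15, 0.19 and -0.02 in siPRMT1 replicates 1, 2 and 3, against 0.07, -0.03 and -0.01 in siPRMT8 and -0.03 to 0.03 in the control arrays. In siPRMT8, replicate 1 was the highest for 21 of 37 (56.8%, against 31.6%). Other lists differed between the siPRMT1 arrays as well: in replicates 1, 2 and 3 the mean of 22 beta-catenin target genes was 6.99, 7.37 and 7.10, that of 12 neural crest and dorsal neural tube markers 7.23, 7.46 and 7.32, that of 18 progenitor and radial glia markers 8.39, 8.76 and 8.55, and that of 15 pluripotency markers 9.61, 8.76 and 9.41. The first 3 means were highest in replicate 2 and the pluripotency mean was lowest there, and the part of these cells in the Wnt values was not tested.

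**Figure D3:**
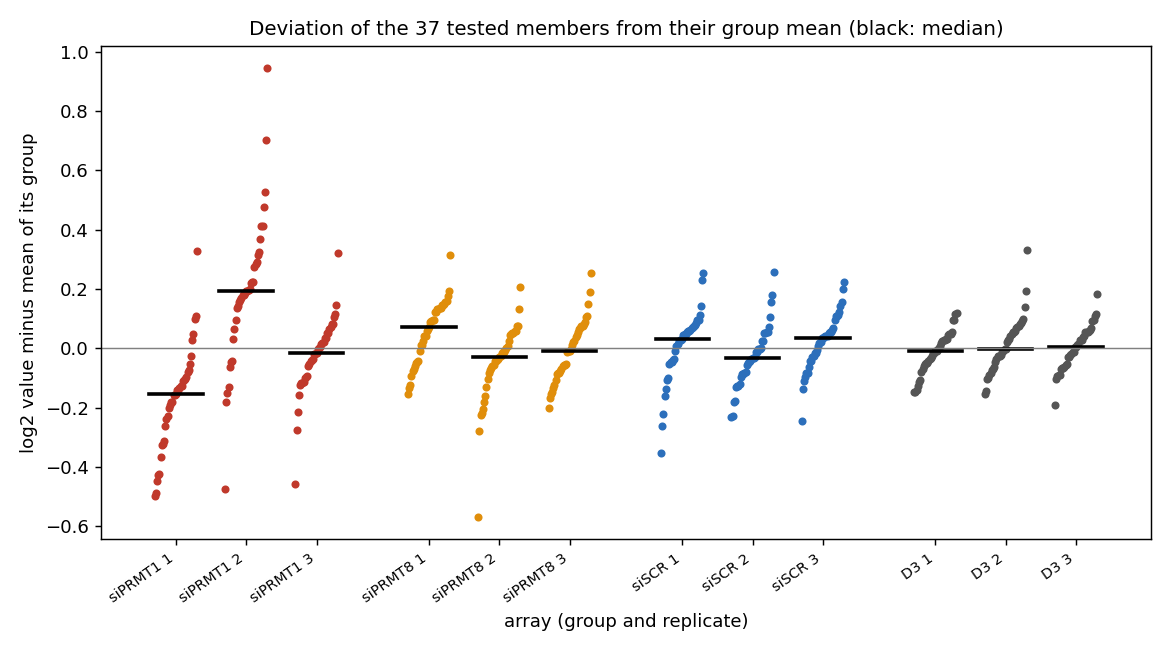
Deviation of each of the 37 tested members from its own group's mean (log2, vertical axis) in each of the 12 arrays (horizontal axis, by group and replicate), with the median as a black bar. The points of siPRMT1 replicate 2 sit mostly above 0 (30 of 37) and those of siPRMT1 replicate 1 mostly below it (5 of 37 above), while the control arrays centre near 0.

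The other secreted modulators of the pathway were described from a separate list of 15 tested genes. In siPRMT1 neurons 2 were higher and 3 lower than in siSCR and 2 higher and 3 lower than in D3 (33.3% in both), and in siPRMT8 neurons 3 were higher and 2 lower than in siSCR (33.3%) and 3 higher and 3 lower than in D3 (40%). The shares over all genes in this order were 18.7%, 26.4%, 23.8% and 27.7%. Rspo3, an R-spondin that amplifies Wnt signals, read 6.28, 7.14 and 6.68 in siPRMT1 neurons, 7.12, 6.62 and 7.25 in siPRMT8 neurons, against 5.95, 5.96 and 6.05 in siSCR and 5.98, 6.39 and 6.28 in D3 neurons. All knockdown arrays were above siSCR, and Rspo3 was 2.02-fold higher in siPRMT8 than in siSCR neurons (1.01, SE 0.203, adjusted p = 0.00547) under every alternative run. In siPRMT1 against siSCR neurons it rose by 0.71 (adjusted p = 0.0311), and this call held only without siPRMT1 replicate 1 among the 6 arrays left out in turn. Against D3 neurons Rspo3 was 0.78 higher in siPRMT8 (adjusted p = 0.0145), a call lost without siPRMT8 replicate 1 or 3 or D3 replicate 1. It was not called in siPRMT1 against D3 neurons. On the other side Draxin, a secreted guidance factor that also antagonises Wnt, fell by 0.66 in siPRMT1 and 0.56 in siPRMT8 against siSCR neurons (adjusted p = 0.00651 and 0.0119) and by 1.02 and 0.92 against D3 neurons (adjusted p = 0.000458 and 0.000815), the siPRMT8 call against siSCR being lost without siPRMT8 replicate 3 or siSCR replicate 2 or 3. Igfbp4, a binding protein that can also inhibit canonical Wnt signals, fell by 0.64 to 0.72 in all 4 comparisons (adjusted p 0.00108 to 0.00349), under every alternative run.

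**Figure D4:**
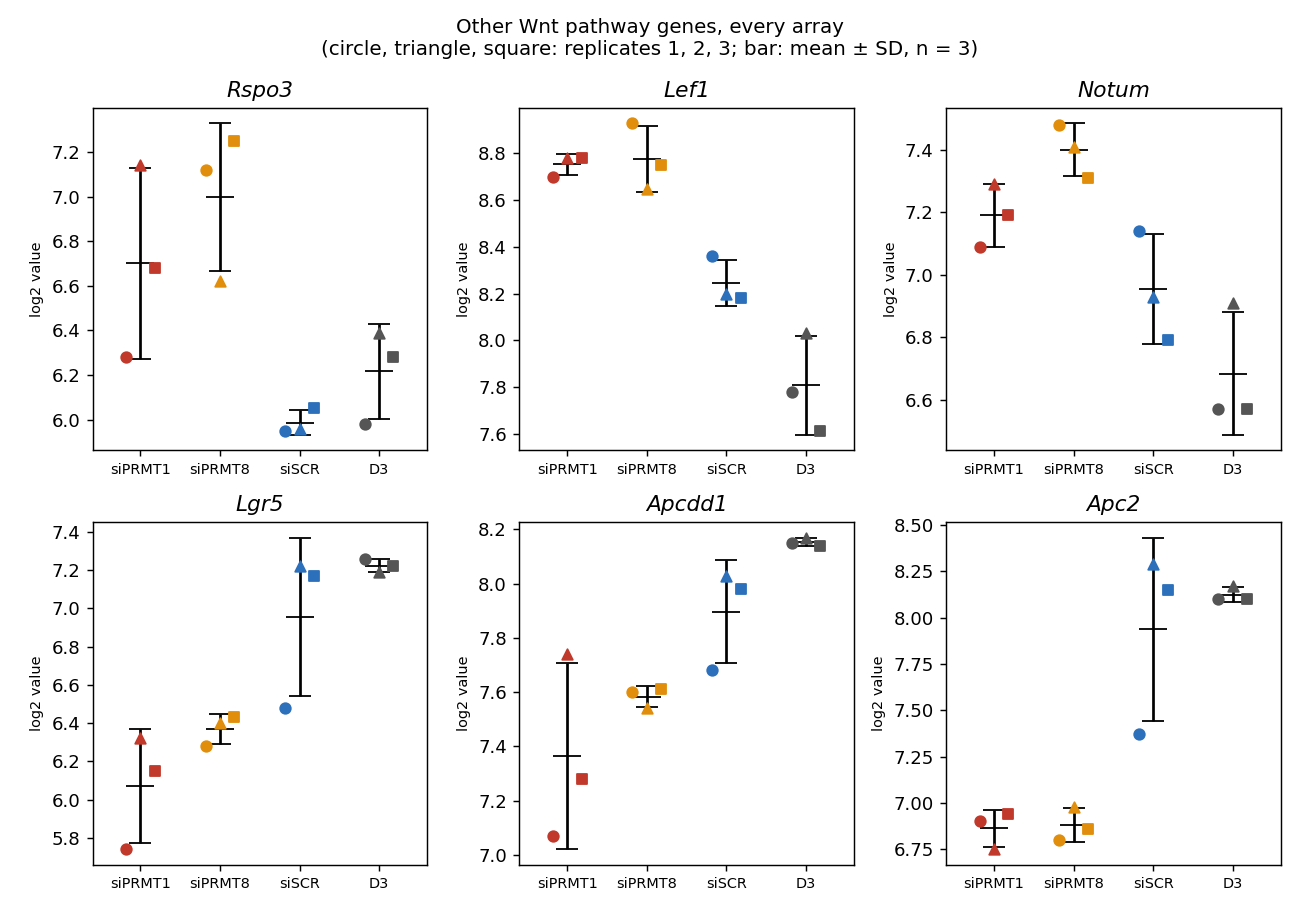
Log2 value of 6 other pathway genes in every array, by group, each panel on its own scale that does not start at 0. Symbols and bars are as in the plot of Wnt1 and the other members by array. By group mean Rspo3, Lef1 and Notum are higher in knockdown neurons and Lgr5, Apcdd1 and Apc2 lower, and siSCR replicate 1 (circle) is the lowest siSCR array for the last 3.

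Among 20 genes for Wnt secretion, co-receptors and other receptors, 1 was higher and 2 lower in siPRMT1 than in siSCR neurons (15%), 3 higher and 2 lower in siPRMT8 than in siSCR (25%), 3 higher and 3 lower in siPRMT1 than in D3 (30%) and 3 higher and 1 lower in siPRMT8 than in D3 (20%). In the same order 18.7%, 23.8%, 26.4% and 27.7% of all genes were called. Lgr5, a receptor for R-spondins and a target of beta-catenin, read 5.74, 6.32 and 6.15 in siPRMT1 neurons, 6.28, 6.40 and 6.43 in siPRMT8 neurons, against 6.48, 7.22 and 7.17 in siSCR and 7.26, 7.19 and 7.22 in D3 neurons. No knockdown array reached a control array, and siSCR replicate 1 was the closest of the controls. Lgr5 fell by 0.88 and 0.59 in siPRMT1 and siPRMT8 against siSCR (SE 0.18, adjusted p = 0.00725 and 0.0355) and by 1.15 and 0.85 against D3 neurons (adjusted p = 0.0011 and 0.00502), and the siPRMT8 call against siSCR held only without siSCR replicate 1 among the arrays left out in turn. Ror1, a co-receptor for Wnt5a, rose by 0.55 in siPRMT1 and 0.57 in siPRMT8 against siSCR (adjusted p = 0.0269 and 0.0205) and by 0.71 and 0.73 against D3 neurons (adjusted p = 0.00561 and 0.0049). The D3 calls of Ror1 held without any one array, and those against siSCR were lost without siSCR replicate 2 or 3, siPRMT1 replicate 2 or 3, or siPRMT8 replicate 1 or 3. Porcn, the acyltransferase that lipid-modifies Wnt proteins, fell by 0.29 in both knockdowns against siSCR (SE 0.0646, adjusted p = 0.0101 and 0.00964). Against D3 neurons Porcn was lower in siPRMT1 (-0.20, adjusted p = 0.0435), a call that held under 7 of 16 alternatives, and it was not called in siPRMT8. Notum, an enzyme that removes the lipid, rose by 0.45 in siPRMT8 against siSCR neurons (adjusted p = 0.0148, lost without siPRMT8 replicate 1 or siSCR replicate 2 or 3). It rose by 0.51 and 0.72 in siPRMT1 and siPRMT8 against D3 neurons (adjusted p = 0.0063 and 0.00109).

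Inside the cell, 1 of 30 cytoplasmic and nuclear components was higher and 5 were lower in siPRMT1 than in siSCR neurons (20%), and 1 was higher and 6 lower in siPRMT8 than in siSCR (23.3%). Against D3 the counts were 3 and 7 in siPRMT1 (33.3%) and 2 and 7 in siPRMT8 (30%). All genes were called at 18.7% and 23.8% against siSCR and at 26.4% and 27.7% against D3, for siPRMT1 and siPRMT8. The component that was higher in all 4 comparisons was Lef1, a DNA-binding partner of beta-catenin. It read 8.70, 8.78 and 8.78 in siPRMT1 neurons, 8.93, 8.65 and 8.75 in siPRMT8 neurons, against 8.36, 8.20 and 8.18 in siSCR and 7.78, 8.03 and 7.61 in D3 neurons, with no overlap between knockdown and control arrays. Lef1 rose by 0.51 and 0.53 in siPRMT1 and siPRMT8 against siSCR (SE 0.105, adjusted p = 0.00762 and 0.00516) and by 0.95 and 0.97 against D3 neurons (adjusted p = 0.000298 and 0.000429), under every alternative run. Apc2, a neural relative of the beta-catenin destruction complex scaffold Apc, read 6.75 to 6.94 in siPRMT1 and 6.80 to 6.98 in siPRMT8 neurons, against 7.37, 8.29 and 8.15 in siSCR and 8.10 to 8.17 in D3 neurons. It fell by 1.07 and 1.06 against siSCR (SE 0.181, adjusted p = 0.0031 and 0.00265) and by 1.26 and 1.24 against D3 neurons (adjusted p = 0.000736 and 0.000867).

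**Figure D5:**
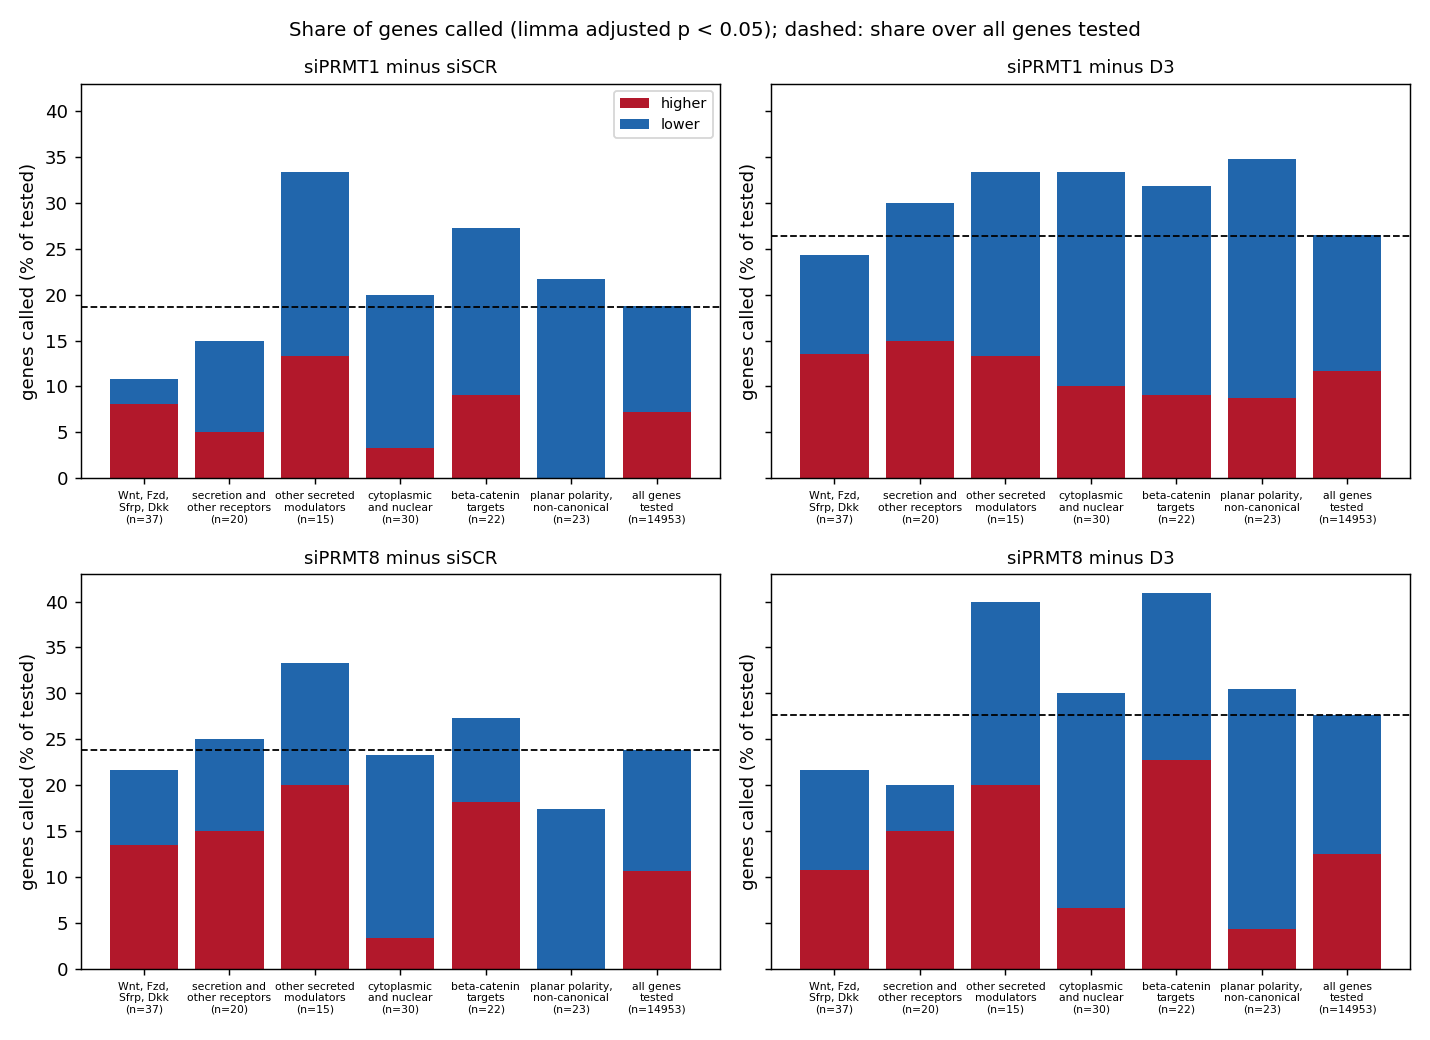
Share of tested genes called in each list (vertical axis, percent; limma adjusted p under 0.05), higher in red and lower in blue, for the 4 knockdown comparisons, with the share over all 14953 genes as a dashed line. The bar of the Wnt, Fzd, Sfrp and Dkk members ends below the dashed line in all 4 panels.

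Target genes of beta-catenin did not move one way. Of 22 tested, 2 were higher and 4 lower in siPRMT1 than in siSCR (27.3%), 4 higher and 2 lower in siPRMT8 than in siSCR (27.3%), 2 higher and 5 lower in siPRMT1 than in D3 (31.8%) and 5 higher and 4 lower in siPRMT8 than in D3 neurons (40.9%). Over all genes the shares in this order were 18.7%, 23.8%, 26.4% and 27.7%. The target list holds Dkk1 of the members and shares several genes with the lists above, among them Lef1, Lgr5, Notum and Apcdd1. Calls of shared genes are counted in both lists. Without siPRMT1 replicate 2 the siPRMT8 comparison with siSCR had 7 higher and 4 lower (50%), where 31.9% of all genes were then called. Tnfrsf19, a receptor of the TNF family that beta-catenin induces, rose by 1.04 in siPRMT8 against siSCR (SE 0.238, adjusted p = 0.0103) and by 0.99 against D3 neurons (adjusted p = 0.00988), while Myc fell by 0.63 in siPRMT1 against siSCR neurons (SE 0.105, adjusted p = 0.00294). Axin2, a feedback inhibitor often read as a reporter of the pathway and given after its values were seen, read 6.87, 7.85 and 7.26 in siPRMT1 neurons, 7.64, 7.43 and 7.71 in siPRMT8 neurons, against 7.15, 7.26 and 7.35 in siSCR and 7.46, 7.52 and 7.40 in D3 neurons. It was not called in any comparison, and in siPRMT1 its arrays spread below and above all controls.

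The 23 planar polarity and non-canonical components were called at shares on both sides of those of all genes (18.7%, 23.8%, 26.4% and 27.7% in the order that follows): 0 higher and 5 lower in siPRMT1 than in siSCR (21.7%), 0 and 4 in siPRMT8 than in siSCR (17.4%), 2 and 6 in siPRMT1 than in D3 (34.8%) and 1 and 6 in siPRMT8 than in D3 neurons (30.4%). The median log2 difference over the list was 0.00, -0.05, -0.01 and -0.03. Celsr3, a cadherin of axon guidance, fell by 0.58 in siPRMT1 and 0.53 in siPRMT8 against siSCR (SE 0.121, adjusted p = 0.00823 and 0.0101) and by 0.76 and 0.72 against D3 neurons (adjusted p = 0.00116 and 0.00168). Prickle2, a polarity protein found at synapses, fell by 0.69 and 0.66 against siSCR neurons (SE 0.118, adjusted p = 0.00321 and 0.00315). Daam2, a formin that acts downstream of Dishevelled, fell by 0.94 and 0.93 against D3 neurons (SE 0.135, adjusted p = 0.000749 and 0.00088). The pan-neuronal list was lower in the same arrays, as given above, and its part in these values was not tested. None of the 5 pathway lists had a call between siSCR and D3 or between siPRMT1 and siPRMT8.

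Markers of dorsal midline, choroid plexus and neural crest cells were set beside the Wnt1 and Wnt3 values. They are not limited to cells that make Wnt1 or Wnt3, and no list for the midbrain-hindbrain boundary was used. Of 17 roof plate, cortical hem and choroid plexus markers, 3 were higher and 2 lower in siPRMT1 than in siSCR (29.4%), 4 higher and 1 lower in siPRMT8 than in siSCR (29.4%), 3 higher and 1 lower in siPRMT1 than in D3 (23.5%) and 4 higher and 2 lower in siPRMT8 than in D3 neurons (35.3%). The R-spondins Rspo1, Rspo2 and Rspo3 stand in both this list and the modulator list. The mean of the list was 7.07 to 7.14 in siPRMT1 and 7.09 to 7.14 in siPRMT8, against 7.02 to 7.09 in siSCR and 6.97 to 7.01 in D3 neurons. Of 12 neural crest and dorsal neural tube markers, 4 were higher and 1 lower in siPRMT1 than in siSCR (41.7%) and 3 higher and 0 lower in siPRMT8 than in siSCR neurons (25%). Against D3, 2 were higher and 1 lower in siPRMT1 (25%) and 2 higher and 2 lower in siPRMT8 neurons (33.3%). For both marker lists, in the order of comparisons given, 18.7%, 23.8%, 26.4% and 27.7% of all genes were called. The mean of these 12 markers was 7.23 to 7.46 in siPRMT1 and 7.34 to 7.43 in siPRMT8, against 7.14 to 7.17 in siSCR and 7.34 in all D3 arrays. Pax3, which marks the dorsal neural tube, read 7.24, 8.57 and 7.78 in siPRMT1 neurons, 8.54, 8.32 and 8.60 in siPRMT8 neurons, against 6.71, 6.85 and 6.74 in siSCR and 7.61, 7.96 and 7.48 in D3 neurons, with siPRMT1 replicate 2 again the highest of its group. Tfap2a, a neural crest factor of the same list, was lower in siPRMT1 than in siSCR neurons (-0.49, SE 0.0965, adjusted p = 0.00614) and lower in both knockdowns than in D3 neurons, with -1.70 in siPRMT1 (adjusted p = 1.41e-05) and -1.11 in siPRMT8 (adjusted p = 0.000264). The part of these cells in the Wnt1 and Wnt3 values was not tested.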

How the data were processed

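RNA of 12 arrays (4 groups of 3, grouped by their titles) was read as the values the authors deposited, on a log2 scale for 35556 probe sets. Over all probe sets the array medians lay within 0.023 of each other. Over the 19938 genes with a single symbol they were 6.83 to 6.86 in knockdown and 6.89 to 6.94 in control arrays. Median centring used the medians over these genes. How the authors corrected background and normalized is not given in the sources used here. Arrays carry no depth, and their number limits the precision. Probe sets were named through the platform annotation (21789 with 1 symbol, 1621 with several and 12146 with none), and 21698 symbols were updated by gene ID. For each symbol the probe set with the highest mean was kept, and genes in the lower 25% by mean (under 5.43) were left out. A fit of all 4 groups in limma 3.58.1 (R 4.3.3), with lmFit and eBayes and 8 residual degrees of freedom, gave 6 comparisons with Benjamini-Hochberg adjustment over 14953 genes, and calls are at adjusted p under 0.05. The procedure was tested on simulated data.

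The members and lists were chosen with earlier results of these data known. All called members are named, with values per array for those that changed by at least 0.58 (log2), and up to 3 higher and 3 lower called genes per pathway list may be named. Alternatives covered normalization, filter, probe sets, variance model, array weights, control, replicate block and arrays left out. Counts of the pathway and marker lists without siSCR replicate 1, siPRMT1 replicate 2 or both were added after seeing the data. Replicate numbers come from the titles. Deviations of same-numbered samples correlated over 0.1 in 8 of 18 pairs, with all 3 pairs doing so only for siSCR and D3 (0.107 to 0.194).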

Additional observations from a re-analysis of the deposited data

How the results depend on the processing

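Of 468 values of called members under other settings, 363 kept their call, 105 lost it and 0 changed direction. Counts of called members are given for siPRMT1 and siPRMT8 against siSCR (4 and 8), siPRMT1 and siPRMT8 against D3 (9 and 8), siSCR against D3 (0) and siPRMT1 against siPRMT8 (0). Median centring gave 7 for siPRMT1 against siSCR and 14 for siPRMT1 against D3 (27% and 35.6% of all genes were then called). Fitting only the 2 groups gave 0 for siPRMT1 against siSCR and 14 for siPRMT8 against D3 (2.39% and 40.1% of all genes). Array weights, whose estimation stopped before convergence, gave 10, 15, 16, 13, 1 and 4 (37%, 38.1%, 44.1%, 44%, 1.87% and 7% of all genes). The mean of siSCR and D3 as control gave 8 for siPRMT1 (28.9% of all genes). Leaving out both siSCR replicate 1 and siPRMT1 replicate 2 gave 8, 14, 10, 13, 1 and 7, where 34%, 38.2%, 37.8%, 40.9%, 1.02% and 12.7% of all genes were called. The cause was not tested. The replicate block gave 4, 8, 7, 6, 0 and 0, and it changed no member call between siSCR and D3. Of all genes 16.8%, 21.9%, 24.1%, 25.5%, 0.1% and 0.0936% were then called. Leaving out 1 array of the 2 groups compared gave 3 to 7, 3 to 8, 3 to 13, 2 to 7, 0 to 0 and 0 to 3. The share of all genes called moved too, over 8.81% to 25.2%, 12.1% to 27.5%, 17.7% to 31%, 18.3% to 22.5%, 0.0134% to 0.14% and 0.0134% to 5.76%. With 1 array left out, counts moved by over 1.5 times in these cases, given with the share of all genes called. For siPRMT1 against siSCR this was without siPRMT1 replicate 1 (7, 16.9%). For siPRMT8 against siSCR it was without siPRMT8 replicate 1 (3, 15%) or 3 (4, 12.1%) or siSCR replicate 2 (3, 13.3%) or 3 (3, 12.4%). For siPRMT1 against D3 it was without siPRMT1 replicate 3 (5, 19.7%) or D3 replicate 1 (4, 17.8%), 2 (4, 17.9%) or 3 (3, 17.7%). For siPRMT8 against D3 it was without siPRMT8 replicate 1 (3, 19.5%) or 3 (4, 18.3%) or D3 replicate 1 (2, 18.3%), 2 (4, 20.6%) or 3 (3, 18.6%). For siPRMT1 against siPRMT8 it was without siPRMT1 replicate 2 (3, 5.76%). An array outside the pair moved a count too: siPRMT8 against siSCR had 13 calls (35.1%) without siPRMT1 replicate 2. With 3 arrays a group, changes of the size of Fzd5 or Dkk3 sit at the threshold.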
